A study of Mus musculus with 25 samples.

Results

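Glucuronyltransferases (Ugt), sulfotransferases (Sult) and carboxylesterases (Ces) were followed across 25 mouse liver samples measured on Illumina bead arrays. Probes were taken as members when the symbol in the authors' deposited tables began with Ugt1, Ugt2 or Ugt3, or with Sult or Ces and a digit. This gave 74 of 45281 probes and 51 of 20005 genes. Of the 51 genes, 34 had a probe detected on at least 4 arrays and were tested among 11594 genes. The rule itself used symbols alone, but the members were chosen with earlier results of these data known. The filter on detection also used the signals.

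Animals of mixed strain (C57BL/6J x 129Sv) had been injected with PIK3CA E545K, PIK3CA H1047R or an empty vector. PIK3CA encodes the catalytic subunit of a phosphoinositide 3-kinase, with E545K in its helical domain and H1047R in its kinase domain. There were 5 E545K tumours of 5 months and 5 E545K livers of 3 months labelled preneoplasia. There were 4 H1047R preneoplastic livers of 3 months, 1 of 6 months and 1 H1047R tumour of 12 months. Empty-vector controls were 5 livers of 6 months and 4 of 3 months. The series' design text names controls of 5 months and 5 controls of 3 months. The sample labels hold no control of 5 months and 4 of 3 months. Controls of 6 and 3 months therefore lie on either side of the tumours in age. The labels do not give the vector, its promoter, the route, the sex or whether samples were separate mice. Each p-value therefore sets a difference of means against the spread among these samples, and that spread may be technical.

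These enzymes handle drugs, hormones, bilirubin, bile acids and lipid esters in hepatocytes. Ugt enzymes of the first and second families sit in the endoplasmic reticulum and join glucuronic acid from UDP-glucuronic acid to their substrates, and Sult enzymes work in the cytosol with the sulfate donor PAPS. Ces enzymes hydrolyse esters and amides, and several also act on stored triacylglycerol. Many of these genes lie in tandem clusters of close copies. An array probe may therefore read more than 1 copy, above all among Ces1, Ugt2b and Sult2a genes, and the Ugt1a transcripts share their 3′ exons.

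In the E545K tumours, carboxylesterases of the Ces1 and Ces3 groups fell together with the bile acid sulfotransferase Sult2a8, while Ces2e, Ces2g, Sult1a1, Sult2b1 and Sult4a1 rose. Relative to the 6-month controls 15 of the 34 tested genes fell and 5 rose, that is adjusted p under 0.05 with limma over all genes. Among all genes 8.93% were called lower and 11% higher in that comparison, and 19.9% were called in all. Against the 3-month controls 12 of the 34 fell and 10 rose, where 21% of all genes were called lower, 19.5% higher and 40.4% in all. The median log2 difference of the 34 genes was -0.51 against the 6-month controls, with -0.02 over all genes, and -0.34 relative to the 3-month controls, with -0.03 over all genes. The comparisons share the 5 tumours, so they are not independent of each other.

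Genes called in the same direction against both control groups numbered 16. The 11 that fell were Ces1a, Ces1b, Ces1e, Ces1f, Ces2a, Ces3a, Ces3b, Sult2a8, Sult5a1, Ugt2a3 and Ugt2b1. The 5 that rose were Ces2e, Ces2g, Sult1a1, Sult2b1 and Sult4a1, of which Sult2b1 met the filter on detection only through tumour arrays. Of all 11594 genes 7.67% fell and 9.5% rose against both. The tissue was bulk liver, in which fewer cells of a type and less RNA per cell cannot be told apart.

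**Figure D1:**
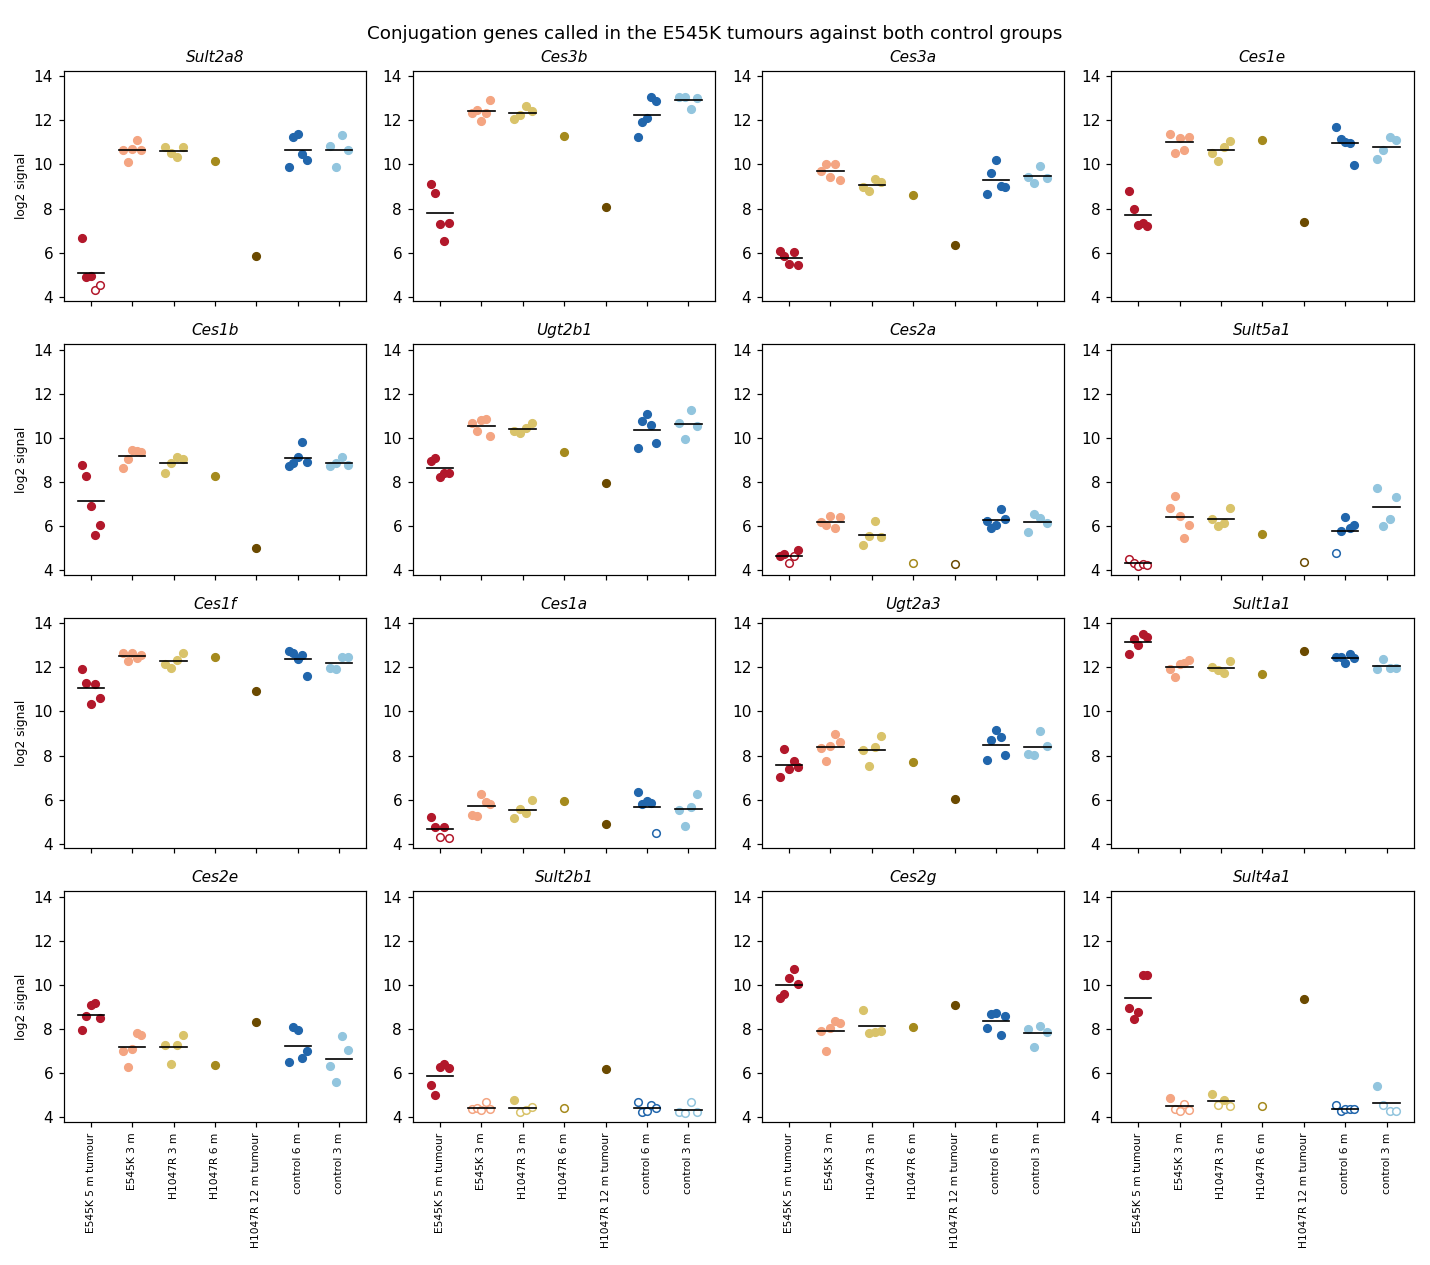
Log2 normalized signal (vertical axis) of the 16 genes called in the same direction against both control groups, 1 panel a gene, with 1 point an array, open where the probe was not detected, and a line at the group mean. From left to right stand E545K tumours, E545K livers, H1047R livers of 3 and 6 months, the 12-month H1047R tumour, and controls of 6 and 3 months. Tumour values of Sult2a8, Ces3a, Ces3b and Ces1e lie below every control value and those of Sult4a1 lie above every control value.

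Among the carboxylesterases the Ces3 pair had the lowest log2 differences. Signals are log2 normalized intensities, listed from replicate 1 on, and are not compared between genes. Ces3b, a carboxylesterase of mouse liver, had log2 signals of 9.11, 8.70, 7.31, 6.53 and 7.34 in the E545K tumours, against 11.23, 11.91, 12.10, 13.08 and 12.86 in the 6-month controls and 13.06, 13.05, 12.53 and 13.03 in the 3-month controls. All tumours lay below all controls, and the tumours spread over a wider range than the 3-month controls. The log2 difference of Ces3b was -4.44 (SE 0.50, adjusted p = 9.79e-05) to the 6-month controls and -5.12 (SE 0.46, adjusted p = 2.27e-05) to the 3-month controls. Its 3 detected probes all fell in both comparisons. The neighbouring Ces3a had 6.05, 5.86, 5.50, 6.04 and 5.44 in the tumours, against 8.66, 9.59, 10.21, 9.01 and 8.98 in the 6-month controls and 9.44, 9.14, 9.92 and 9.41 in the 3-month controls. Ces3a was more even among tumours than Ces3b. Its log2 difference was -3.51 (SE 0.28, adjusted p = 7.53e-06) to the 6-month controls and -3.70 (SE 0.20, adjusted p = 1.26e-06) to the 3-month controls.

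All 7 tested Ces1 genes fell against the 6-month controls, and 4 of the 7 fell relative to the 3-month controls. Ces1e encodes egasyn, which holds beta-glucuronidase in the endoplasmic reticulum. Its signals were 8.79, 7.98, 7.25, 7.37 and 7.20 in the tumours, against 11.71, 11.16, 11.03, 10.98 and 9.95 in the 6-month controls and 10.24, 10.63, 11.24 and 11.09 in the 3-month controls. The groups did not overlap, and the fall was 9.49-fold (log2 difference -3.25, SE 0.36, adjusted p = 9.42e-05) against the 6-month controls. To the 3-month controls the log2 difference was -3.08 (SE 0.33, adjusted p = 7.68e-05).

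Other Ces1 genes fell less and the groups mostly overlapped. Ces1b had 8.77, 8.28, 6.91, 5.61 and 6.03 in the tumours, against 8.72, 8.89, 9.11, 9.81 and 8.91 in the 6-month controls and 8.74, 8.88, 9.14 and 8.77 in the 3-month controls. Tumours 1 and 2 lay near the controls and tumours 3, 4 and 5 well below them. The log2 differences were -1.97 (SE 0.54, adjusted p = 0.0246) to the 6-month controls and -1.76 (SE 0.57, adjusted p = 0.0290) to the 3-month controls, and a second Ces1b probe was not called in either comparison. Leaving out tumour 3, 4 or 5, control 4 of 6 months, or any 3-month control ended the call (adjusted p of Ces1b up to 0.0680 and 0.130 over the alternatives). Ces1f, a triacylglycerol hydrolase, had 11.93, 11.31, 10.34, 11.23 and 10.59 in the tumours, against 12.72, 12.64, 12.39, 12.55 and 11.62 in the 6-month controls and 11.99, 11.90, 12.47 and 12.46 in the 3-month controls. Tumour 1 reached into both control ranges. Its log2 differences were -1.30 (SE 0.31, adjusted p = 0.0114) to the 6-month and -1.12 (SE 0.30, adjusted p = 0.0113) to the 3-month controls.

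Ces1a was near the limit of detection, at 5.19, 4.78, 4.32, 4.77 and 4.27 in the tumours, against 6.33, 5.82, 5.94, 5.84 and 4.50 in the 6-month controls and 5.51, 4.81, 5.65 and 6.24 in the 3-month controls. Tumours 3 and 5 and 6-month control 5 were not detected, and the groups overlapped. The log2 differences were -1.02 (SE 0.31, adjusted p = 0.0387) to the 6-month and -0.89 (SE 0.28, adjusted p = 0.0251) to the 3-month controls. The first call was lost without any 1 of tumours 2 to 5 or controls 1 to 4, and the second without tumour 3 or 5 or control 1, 3 or 4 (adjusted p of Ces1a up to 0.0952 and 0.0773).

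Ces1d, Ces1c and Ces1g were called lower against the 6-month controls only, and the difference between the comparisons was not tested. Ces1d, the main hepatic triacylglycerol hydrolase of the mouse, had 12.75, 12.68, 11.74, 11.90 and 11.86 in the tumours, against 13.99, 13.73, 13.62, 13.45 and 13.66 in the 6-month controls and 12.62, 12.25, 13.66 and 13.44 in the 3-month controls. The tumours lay below all 6-month controls, while 3-month controls 1 and 2 lay among them. Its log2 difference was -1.50 (SE 0.22, adjusted p = 0.000817) against the 6-month controls. Ces1c, which encodes the esterase secreted into mouse plasma, had a log2 difference of -0.91 (SE 0.30, adjusted p = 0.0491), and its second probe did not pass. Ces1g had a log2 difference of -1.19 (SE 0.33, adjusted p = 0.0240). Without tumour 3, 4 or 5, or without 6-month control 2 or 4, neither of these 2 genes passed, nor did Ces1c without control 3 or 5 (adjusted p up to 0.118 for Ces1c and 0.0647 for Ces1g).

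The Ces2 genes split. Ces2a had 4.65, 4.75, 4.32, 4.64 and 4.93 in the tumours, tumours 3 and 4 not detected, against 6.23, 5.92, 6.05, 6.77 and 6.35 in the 6-month controls and 5.71, 6.55, 6.35 and 6.14 in the 3-month controls. Every tumour lay below every control. Its log2 difference was -1.60 (SE 0.18, adjusted p = 0.000122) to the 6-month controls and -1.53 (SE 0.19, adjusted p = 0.000167) to the 3-month controls.

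Ces2g had 9.40, 9.58, 10.33, 10.73 and 10.06 in the tumours, against 8.06, 8.68, 8.71, 7.71 and 8.59 in the 6-month controls and 8.0, 7.20, 8.14 and 7.88 in the 3-month controls. The tumours lay above all controls, and both detected Ces2g probes rose. The rise was 3.18-fold (log2 difference 1.67, SE 0.28, adjusted p = 0.00185) against the 6-month controls and 4.64-fold (2.22, SE 0.28, adjusted p = 0.000219) relative to the 3-month controls. Ces2e had 7.95, 8.59, 9.09, 9.17 and 8.48 in the tumours, against 6.51, 8.10, 7.94, 6.68 and 7.0 in the 6-month controls and 6.31, 5.58, 7.69 and 7.05 in the 3-month controls. Only tumour 1 reached into the 6-month range. The log2 difference of Ces2e was 1.41 (SE 0.34, adjusted p = 0.0138) to the 6-month controls and 2.0 (SE 0.39, adjusted p = 0.00240) to the 3-month controls. Ces2b rose relative to the 3-month controls, by 1.20 (SE 0.39, adjusted p = 0.0288), and did not pass without tumour 2, 3 or 4 or control 1 (adjusted p up to 0.169). It was not called against the 6-month controls, which ran between 4.45 and 7.72.

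These genes lie on mouse chromosome 8, in the order of the Ces1 genes, Ces5a, then Ces2, then Ces3 and Ces4a. They form separate stretches and are not 1 contiguous row. Promoter regions start at bases 93048143 (Ces1a) to 93535791 (Ces5a) in the first stretch. In the other they start at 104733753 (Ces2a) to 105131550 (Ces4a). In the first stretch 7 neighbouring Ces1 genes had negative log2 differences. In the other Ces2a was lower, Ces2b, Ces2e and Ces2g had positive differences, and Ces3a and Ces3b were again lower. Ces4a was not called, and no tumour array detected it.

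**Figure D2:**
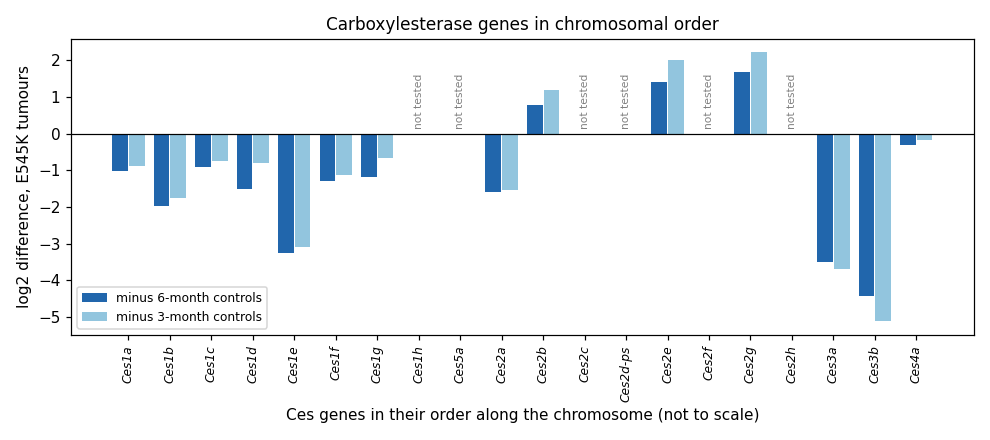
Log2 difference of the E545K tumours (vertical axis) for each carboxylesterase gene in its order along mouse chromosome 8 (horizontal axis, not to scale), minus the 6-month controls in dark bars and minus the 3-month controls in light bars. Ces1 and Ces3 genes lie below 0, and Ces2b, Ces2e and Ces2g lie above 0. The stretch of Ces1 genes with Ces5a stands apart on the chromosome from the stretch of Ces2 to Ces4a. Genes marked not tested had no probe detected on at least 4 arrays or no probe under that symbol.

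The sulfotransferases Sult2a8 and Sult4a1 had the lowest and the highest log2 difference of the 34 tested genes. Sult2a8 is a hepatic enzyme that sulfates bile acids in mice. Its signals were 6.67, 4.88, 4.93, 4.29 and 4.53 in the tumours, against 9.88, 11.26, 11.36, 10.50 and 10.20 in the 6-month controls and 10.82, 9.86, 11.34 and 10.66 in the 3-month controls. Tumours 4 and 5 were not detected, and tumour 1 was the highest of the 5. The log2 difference was -5.58 (SE 0.44, adjusted p = 7.19e-06) to the 6-month controls and -5.61 (SE 0.45, adjusted p = 1.13e-05) to the 3-month controls.

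Sult4a1, a sulfotransferase known from brain, moved the other way. It had 8.95, 8.43, 8.77, 10.46 and 10.47 in the tumours, against 4.57, 4.27, 4.36, 4.38 and 4.36 in the 6-month controls and 5.40, 4.55, 4.29 and 4.28 in the 3-month controls. It was detected on all 5 tumours, on no 6-month control and on 3-month control 1 alone. Where a group was undetected throughout, the fold is a bound, computed with the dimmest detected probe of each of its arrays. The other group entered at its measured mean, so the bound is approximate where arrays of that group were undetected too. The rise was at least 24.2-fold against the 6-month controls (adjusted p = 5.37e-06), and the log2 difference against the 3-month controls was 4.78 (SE 0.45, adjusted p = 3.30e-05). In those controls 3 of the 4 values were at background, so that the size of this difference is set mostly by background there.

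Sult2b1, which sulfates cholesterol, was undetected in all 9 controls. Its probe was detected on 7 arrays, the 5 E545K tumours, the 12-month H1047R tumour and 1 H1047R liver of 3 months. It thus met the filter of 4 arrays only through the tumours, where it was high, and its test is not independent of that filter. Sult2b1 had 5.46, 5.00, 6.28, 6.40 and 6.23 in the tumours, against 4.68, 4.23, 4.29, 4.55 and 4.42 in the 6-month controls and 4.25, 4.20, 4.69 and 4.25 in the 3-month controls. It rose at least 2.08-fold (adjusted p = 0.00286) relative to the 6-month controls and at least 2.17-fold (adjusted p = 0.00171) relative to the 3-month controls. A second probe of Sult2b1 passed with the 3-month controls and did not with the 6-month controls. Sult1a1, a broad phenol sulfotransferase, had 12.59, 13.28, 13.01, 13.53 and 13.36 in the tumours, against 12.45, 12.45, 12.21, 12.60 and 12.43 in the 6-month controls and 11.93, 12.40, 11.99 and 11.98 in the 3-month controls. Tumour 1 lay at the top of the 6-month range and the other 4 above it. The rise was 1.65-fold (log2 difference 0.73, SE 0.18, adjusted p = 0.0168) with the 6-month controls and 2.11-fold (1.08, SE 0.20, adjusted p = 0.00170) with the 3-month controls.

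Sult5a1 was undetected in all tumours, at 4.51, 4.31, 4.20, 4.26 and 4.25, against 4.78, 5.78, 6.39, 5.91 and 6.06 in the 6-month controls and 7.73, 6.01, 6.32 and 7.33 in the 3-month controls. Control 1 of 6 months was undetected too, so the bound against that group is approximate. Sult5a1 was at least 2.19-fold lower (adjusted p = 0.00209) than in the 6-month controls and at least 4.58-fold lower (adjusted p = 0.000159) than in the 3-month controls, while a second probe was not called. Sult1c2 rose relative to the 3-month controls, at 7.07, 7.41, 6.94, 7.33 and 6.29 in the tumours, against 5.68, 5.06, 6.01 and 5.37 in those controls (log2 difference 1.48, SE 0.25, adjusted p = 0.00117). The 6-month controls, at 5.48, 6.52, 6.39, 6.49 and 6.78, overlapped with the tumours, and Sult1c2 was not called there. Sult1d1, which sulfates catecholamines, was not called in either comparison.

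The log2 differences of the glucuronyltransferases ran between -1.74 and 0.91 with the 6-month controls. Of 13 tested Ugt genes 3 fell and 0 rose relative to the 6-month controls, where 8.93% of all genes fell and 11% rose. An unadjusted p under 0.05 was reached there by 7 of the 13 and by 3886 of all 11594 genes. Relative to the 3-month controls 3 of the 13 fell and 3 rose, where 21% of all genes fell and 19.5% rose. Ugt2b1, which glucuronidates steroids and drugs, had 8.94, 9.09, 8.24, 8.41 and 8.43 in the tumours, against 9.56, 10.79, 11.08, 10.61 and 9.77 in the 6-month controls and 10.68, 9.97, 11.28 and 10.52 in the 3-month controls. The tumours lay below all controls. The log2 difference was -1.74 (SE 0.30, adjusted p = 0.00215) to the 6-month controls and -1.99 (SE 0.26, adjusted p = 0.000269) to the 3-month controls.

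Ugt2a3 had 7.03, 8.28, 7.38, 7.73 and 7.49 in the tumours, against 7.79, 8.69, 9.16, 8.83 and 8.01 in the 6-month controls and 8.05, 8.01, 9.11 and 8.42 in the 3-month controls. Tumour 2 lay inside both control ranges. The log2 differences were -0.91 (SE 0.30, adjusted p = 0.0493) and -0.81 (SE 0.28, adjusted p = 0.0384) to the 6-month and 3-month controls. Leaving out tumour 1, 3, 4 or 5 ended either call, as did leaving out control 2, 3 or 4 of 6 months or control 3 or 4 of 3 months (adjusted p of Ugt2a3 up to 0.109 and 0.105). Ugt2b36 fell by 0.39 (SE 0.12, adjusted p = 0.0249) with signals of 13.24 to 13.51 in the tumours, against 13.68 to 13.93 in the 3-month controls. Its second probe, detected on all 25 arrays, was not called there (log2 difference -0.13, SE 0.18, adjusted p = 0.595). Ugt2b35 rose by 1.17 (SE 0.37, adjusted p = 0.0272) relative to the same controls. Ugt2b5 was undetected in all tumours and at least 1.40-fold lower than in the 6-month controls (adjusted p = 0.0251). That bound is approximate, as 6-month controls 1 and 4 were undetected too. Each of these 3 calls was lost when single arrays were left out: tumour 4 or control 3 or 4 for Ugt2b36 (adjusted p up to 0.109), tumour 3 or control 1, 2 or 4 for Ugt2b35 (up to 0.224), and tumour 3, 4 or 5 or control 2 for Ugt2b5 (up to 0.0552).

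Within the Ugt1 group, which contains the bilirubin enzyme Ugt1a1 and the phenol enzyme Ugt1a6a, 0 of 5 tested genes passed with limma against the 6-month controls, and 0 had an unadjusted p under 0.05. Ugt1a1 had 5.68, 7.48, 6.97, 5.82 and 5.33 in the tumours, against 5.47, 6.55, 7.56, 5.24 and 7.32 in the 6-month controls and 5.03, 4.66, 5.79 and 5.50 in the 3-month controls. The values of tumours and 6-month controls covered the same span. Ugt1a5 and Ugt1a6a were undetected in all 3-month controls and rose at least 1.5-fold (adjusted p = 0.0365) and at least 1.43-fold (adjusted p = 0.0319) relative to them. Tumour 1 was undetected for both genes and tumour 5 for Ugt1a6a, so these bounds are approximate. Both calls were lost without tumour 2, 3 or 4 or any 1 control (adjusted p up to 0.187 and 0.150). Both genes were detected on some 6-month controls. The Ugt3 genes were not called against controls by the brighter probe that stood for each gene. A second Ugt3a1 probe, detected on 21 arrays, was called lower in the fit of all probes, with log2 differences of -0.94 (SE 0.18, adjusted p = 0.00518) to the 6-month and -0.74 (SE 0.17, adjusted p = 0.00521) to the 3-month controls, while the brighter probe had -1.51 and -1.03 with wider errors (SE 0.61 and 0.49) there. Ugt3a2 ran between 9.53 and 10.58 in the tumours, against 9.37 to 12.10 in the 6-month controls and 9.76 to 11.33 in the 3-month controls. In humans UGT3A1 transfers N-acetylglucosamine and UGT3A2 transfers glucose and xylose, in place of glucuronic acid.

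**Figure D3:**
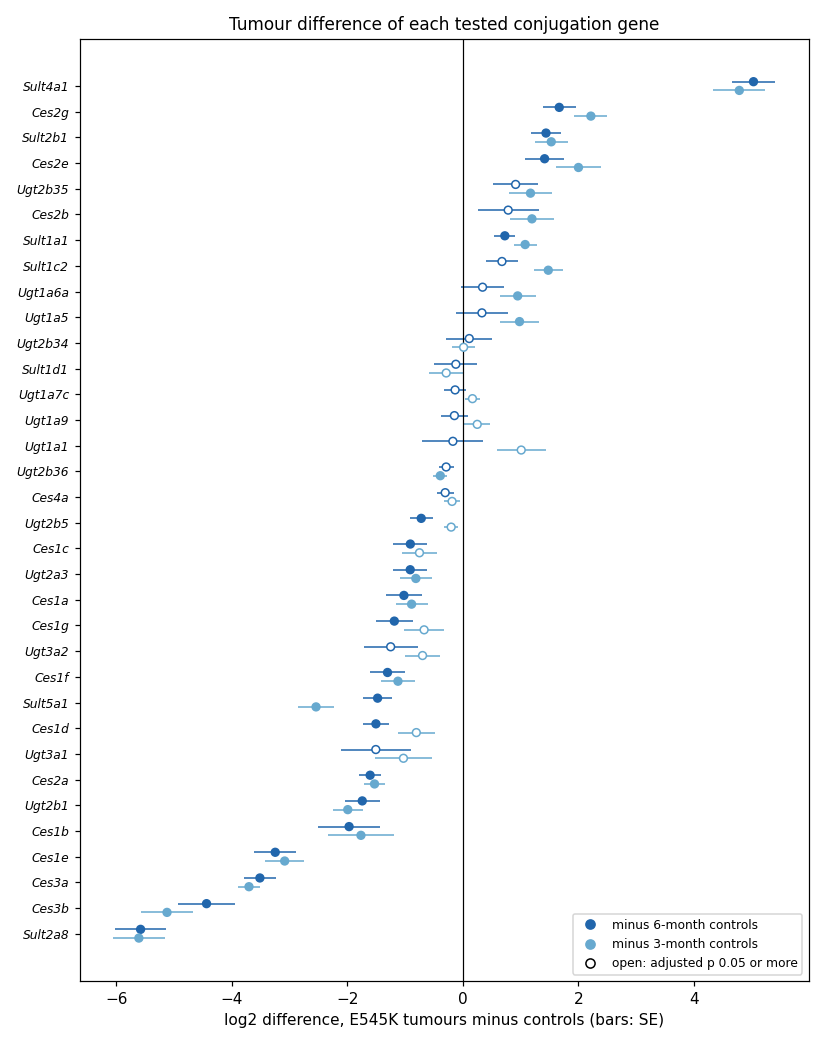
Log2 difference of the E545K tumours minus controls (horizontal axis) for each of the 34 tested genes, with bars of 1 SE, minus the 6-month controls in dark points and minus the 3-month controls in light points; open points did not pass an adjusted p of 0.05. Sult4a1 lies highest and Sult2a8 lowest in both comparisons.

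To place the changes in the sequence around these genes, RefSeq promoters of GRCm38.p6 were read from 250 bases before to 50 bases after each start. Of the 51 genes 43 had an entry, with 47 promoters in all. Shown in gene direction, 5′ to 3′, are those of 2 Ces genes of chromosome 8 that moved in opposite directions, Ces3b (chr8:105083505-105083804, plus strand) and Ces2g (chr8:104961468-104961767, plus strand). Also shown is that of the sulfotransferase with the lowest log2 difference, Sult2a8 (chr7:14438502-14438801, minus strand, 1 of its 2 listed starts). Capitals mark matches to the motifs listed after them, and only Sult2a8 of these 3 held one. The other listed promoter of Sult2a8 (chr7:14446538-14446837, minus strand), not printed, held no match.
Ces3b: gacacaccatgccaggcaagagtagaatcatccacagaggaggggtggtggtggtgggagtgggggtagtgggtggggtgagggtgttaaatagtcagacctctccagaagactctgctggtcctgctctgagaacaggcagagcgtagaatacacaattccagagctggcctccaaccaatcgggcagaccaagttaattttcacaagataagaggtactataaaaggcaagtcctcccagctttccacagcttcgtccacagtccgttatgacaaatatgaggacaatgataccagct
Ces2g: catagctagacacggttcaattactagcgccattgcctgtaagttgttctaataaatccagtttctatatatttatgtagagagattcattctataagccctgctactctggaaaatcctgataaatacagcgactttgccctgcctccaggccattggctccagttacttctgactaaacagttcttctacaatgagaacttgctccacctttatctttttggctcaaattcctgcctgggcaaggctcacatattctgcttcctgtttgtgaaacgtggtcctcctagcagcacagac
Sult2a8: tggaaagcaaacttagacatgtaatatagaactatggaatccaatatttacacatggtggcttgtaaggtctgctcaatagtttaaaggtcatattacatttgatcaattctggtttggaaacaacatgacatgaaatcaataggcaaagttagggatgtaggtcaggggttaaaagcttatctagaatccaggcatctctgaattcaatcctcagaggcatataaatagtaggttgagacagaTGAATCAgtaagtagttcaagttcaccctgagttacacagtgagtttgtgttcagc
The motifs searched on both strands were the HNF4 site CAAAGTCCA, the STAT5 site TTCNNNGAA, the AP-1 site TGANTCA and the antioxidant response element TGACNNNGC.

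The AP-1 site occurred in 9 of the 47 promoters (19.1%), against 7.81% of all 32851 promoters of the same length. It lay at -6 in the printed promoter of Sult2a8, counted from that start, and was absent from the other listed promoter of this gene. Among genes lower against both controls 2 of 11 promoters held it (18.2%), and among those higher 1 of 5 did (20%). Of the promoters of the other members 6 of 31 held it (19.4%), so the called genes did not stand apart. The STAT5 site occurred in 4 (8.51%, against 8.3% of all) and the HNF4 site in 1 (2.13%, against 0.475%). The antioxidant response element letters were in none of the 47, against 12.4% of all. Matches of this kind are a description of letters, and binding was not measured.

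In the livers of 3 months labelled preneoplasia, no conjugation gene passed the same threshold. The E545K livers of 3 months minus the 3-month controls, the H1047R livers of 3 months minus the same controls, and the E545K minus the H1047R livers of 3 months each called 0 of the 34 genes with limma. The shares of all genes called were 0.00863%, 0% and 0%. The numbers of members at an unadjusted p under 0.05 were 1, 4 and 2, where 536, 812 and 713 of all 11594 genes reached it. Ces3b was the gene of smallest p in both mutant comparisons, and these share their controls. Its signals were 12.32, 12.45, 11.97, 12.35 and 12.93 in the E545K livers and 12.07, 12.25, 12.64 and 12.42 in the H1047R livers, against 13.06, 13.05, 12.53 and 13.03 in the 3-month controls. The log2 differences were -0.52 (SE 0.20, adjusted p = 0.9999) for E545K and -0.57 (SE 0.17, adjusted p = 0.600) for H1047R, so neither passed.

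Because the E545K livers of 3 months carried the same mutation, the tumours were also set against them. There 16 of the 34 genes fell and 8 rose, where 20.8% of all genes were called lower, 19.9% higher and 40.8% in all. Sult2a8 had 10.64, 10.13, 10.68, 11.13 and 10.68 in these E545K livers, and the log2 difference of the tumours was -5.59 (SE 0.38, adjusted p = 1.82e-06). Sult4a1 had 4.87, 4.38, 4.27, 4.61 and 4.31 there, with liver 1 alone detected, and the log2 difference was 4.93 (SE 0.38, adjusted p = 4.19e-06), again with a mean that is mostly background in the E545K livers. Ugt3a1 fell in this comparison (log2 difference -1.47, SE 0.52, adjusted p = 0.0398), with 7.97, 8.25, 9.42, 7.58 and 6.93 in the tumours, against 9.24, 8.02, 9.62, 10.87 and 9.74 in the E545K livers. Leaving out tumour 1, 2, 4 or 5 or E545K liver 1, 3, 4 or 5 ended that call (adjusted p up to 0.0985). The second Ugt3a1 probe fell too in the fit of all probes (log2 difference -0.77, SE 0.14, adjusted p = 0.00204).

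The controls of 6 months minus those of 3 months called 0 of the 34 genes with limma, where 0.0173% of all genes were called. An unadjusted p under 0.05 was reached by 7 members and by 1235 of all 11594 genes. Sult1c2, Sult5a1, Ces1d and Ugt1a1 had the smallest p. Their log2 differences were 0.80 (SE 0.28), -1.07 (SE 0.40), 0.70 (SE 0.28) and 1.18 (SE 0.48), with adjusted p between 0.422 and 0.445. Of these, Sult1c2 was called in the tumours with the 3-month controls alone and Ces1d with the 6-month controls alone.

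The H1047R livers of late age were 1 preneoplastic liver of 6 months and 1 tumour of 12 months, so neither has a replicate. Fitted together as 2 samples minus the 6-month controls they called 0 of the 34 genes with limma, where 0.0431% of all genes were called. An unadjusted p under 0.05 was reached by 10 members and by 1037 of all 11594 genes. Without the 6-month liver the fit called 10 members, 2 higher and 8 lower, with the lone tumour assumed to vary like the controls, where 4.92% of all genes were called higher and 2.31% lower. A single fit of all 25 arrays called 11 for the pooled samples, 1 higher and 10 lower, where 6.55% of all genes were called higher and 2.92% lower. Each sample on its own was then placed in the range of the 9 controls. The 12-month tumour lay below all 9 controls in 18 genes, including 10 of the 11 genes that fell in the E545K tumours, and above all 9 in 5 genes, which were the 5 that rose there. Of all genes 20% lay below and 21.7% above the 9 controls in that tumour. The E545K calls used the same 9 controls, and the share among all genes called there was not computed. Whether the overlap is particular to these enzymes was therefore not tested. Ces1a was the gene of the 11 left out, at 4.88 within the control range. In the 6-month liver 9 of the 34 genes lay below all 9 controls and 0 above, where 12.6% and 16% of all genes did.

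Sult4a1 was 4.51 and undetected in the 6-month H1047R liver and 9.36 in the 12-month H1047R tumour. Sult2a8 was 10.15 in the 6-month liver and 5.84 in the 12-month tumour, against 9.86 to 11.36 in the 9 controls. Ces3b was 11.30 and 8.06 in these samples, against 11.23 to 13.08 in the controls. For these genes the 6-month liver lay within the control range and the 12-month tumour far outside it.

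Ces2a differed from this order. It was undetected in both late H1047R samples, at 4.31 in the 6-month liver and 4.28 in the 12-month tumour, against 5.71 to 6.77 in the 9 controls. At 3 months the H1047R livers had 5.15, 5.54, 6.24 and 5.51, and the E545K livers had 6.19, 6.06, 6.46, 5.90 and 6.41. For the pooled late samples the bound was at least 2.90-fold lower than the 6-month controls (adjusted p = 0.124), which did not pass. The 6-month liver lay below all 9 controls in 5 of the 11 genes that fell in E545K tumours, Ces1b, Ces2a, Ces3a, Ugt2a3 and Ugt2b1. Sult1a1, which rose in the E545K tumours, was 11.68 in the 6-month liver, below all controls.

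The 12-month H1047R tumour lay below all 5 E545K tumours in 12 of the 34 genes, above all 5 in 2 and within their range in 20. Of all genes 20.1% lay below and 19.8% above. Ces1b was 5.01, Ces1c 11.27, Ugt2a3 6.03 and Sult1d1 6.76 in the 12-month tumour. In the E545K tumours Ces1b spanned 5.61 to 8.77, Ces1c 11.97 to 13.65, Ugt2a3 7.03 to 8.28 and Sult1d1 8.07 to 9.39. The 2 above were Ces4a, undetected in all 6 tumours, and Ces3a, which was 6.35 in the 12-month tumour, against 5.44 to 6.05 in the E545K tumours. A single array gives no test of this.

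**Figure D4:**
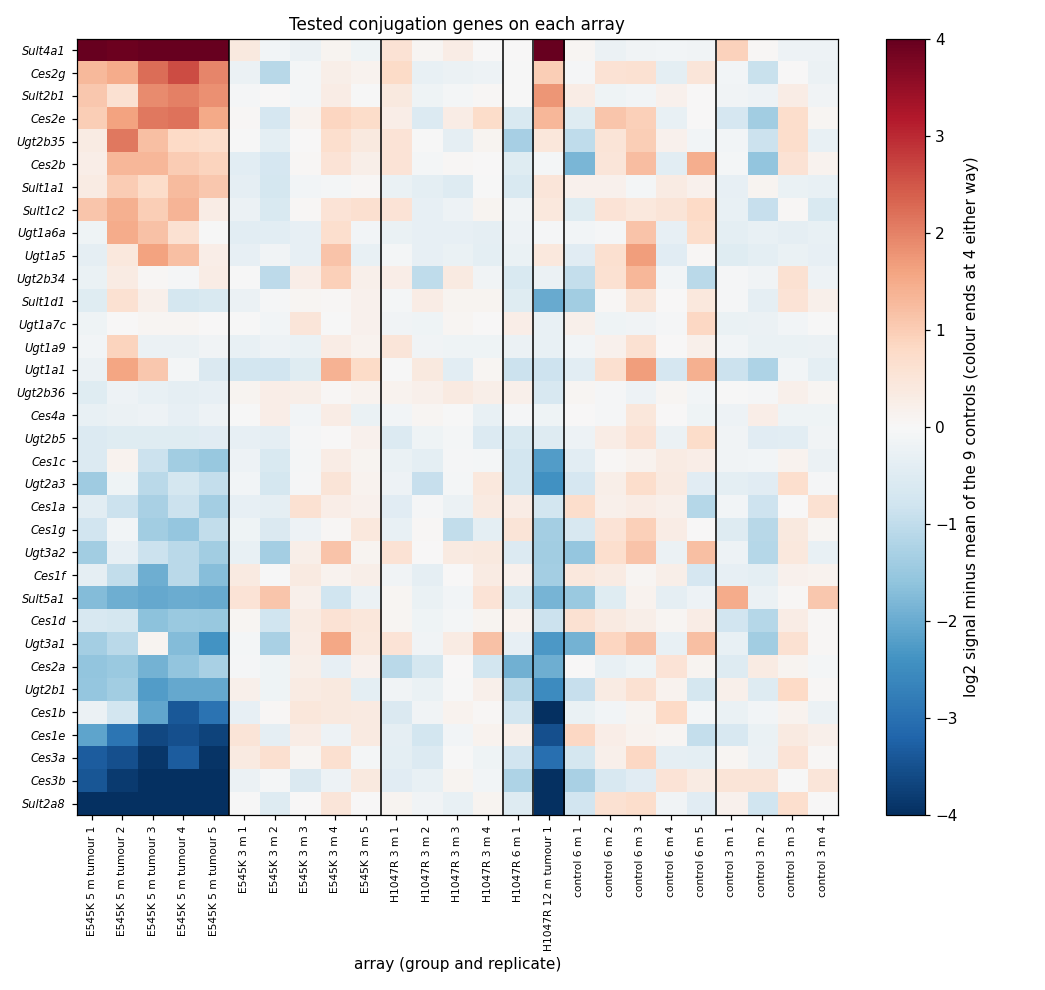
Log2 signal minus the mean of the 9 controls (colour, ending at 4 either way) for the 34 tested genes (rows) on each of the 25 arrays (columns), ordered by the tumour difference against the 6-month controls. The 5 E545K tumours and the 12-month H1047R tumour share dark rows at Sult4a1 and at Sult2a8, Ces3b, Ces3a and Ces1e, which are pale in the other groups.

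The genes around these enzymes were read from lists of known roles. Their counts are against the 6-month controls, where 8.93% of all genes fell and 11% rose. Among the suppliers of UDP-glucuronic acid 1 of 5 tested genes rose against the 6-month controls, Ugp2, which makes UDP-glucose (log2 difference 1.09, adjusted p = 0.00992), and none fell. Among the genes of sulfate activation and supply 1 of 7 fell, the sulfite oxidase Suox (-1.75, adjusted p = 0.0157), and none rose. Of 5 tested exporters of conjugates 2 rose and 1 fell. The canalicular pump Abcc2 had a log2 difference of 0.89 (adjusted p = 0.0336), Abcc4, an exporter of the sinusoidal side, 2.18 (adjusted p = 0.0230) and Abcc6 -1.70 (adjusted p = 0.000470).

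Of 14 other hydrolases of conjugates and esters 3 fell and 1 rose against the 6-month controls, where 8.93% of all genes fell and 11% rose. The log2 difference was -1.92 (adjusted p = 0.000187) for the epoxide hydrolase Ephx2, -1.59 (adjusted p = 0.000950) for the monoglyceride lipase Mgll and -2.70 (adjusted p = 0.00305) for the paraoxonase Pon1. Gusb, the beta-glucuronidase that Ces1e holds, rose by 0.53 (adjusted p = 0.0257). Of 13 tested regulators of conjugation genes 1 fell, Keap1, which restrains the oxidant-response factor Nfe2l2 (-1.21, adjusted p = 0.0257). Of 8 tested target genes that report on such regulators 2 rose, Nqo1 (2.32, adjusted p = 0.00140) and Gstm1 (0.77, adjusted p = 0.0338), and 2 fell, Cyp1a2 (-2.83, adjusted p = 0.0194) and Cyp7a1 (-2.64, adjusted p = 0.0382). Over these lists the medians ran between -0.47 and 0.48, with -0.02 over all genes.

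Markers of cell types were read beside the members. In the E545K tumours 8.93% of all genes fell and 11% rose against the 6-month controls. Against the 3-month controls 21% fell and 19.5% rose. Of 7 tested hepatocyte markers none was called against the 6-month controls, and 2, Apob and Fga, rose relative to the 3-month controls. The log2 of their summed signal was 16.4 to 16.7 in the tumours, against 16.3 to 16.8 in the 6-month controls and 16.5 to 16.6 in the 3-month controls. Of 8 macrophage markers 3 rose against both control groups, with sums of 11.2 to 13.1 in the tumours, against 10.2 to 11.8 in the 6-month and 10.7 to 11.6 in the 3-month controls. The 2 tested adipocyte markers summed to 5.37 to 5.76 in the tumours, against 6.43 to 9.67 and 7.06 to 10.6 in those controls. Of 6 tested skeletal muscle markers 5 fell against the 3-month controls and none against the 6-month controls, with sums of 6.91 to 7.07 in the tumours, against 7.01 to 10.3 in the 6-month controls and 7.81 to 14.18 in the 3-month controls. Every 3-month control thus lay above every tumour in the muscle sum. With all 3-month controls 12 members fell and 10 rose in the tumours. With 3-month controls 3 and 4 alone 13 members fell and 6 rose, where 13.2% of all genes fell and 11% rose. The bile duct markers Krt19, Epcam and Cftr were not among the tested genes. Sox9 and Krt7 summed to 10.005 to 10.8 in the E545K tumours and 12.1 in the 12-month H1047R tumour, against 8.78 to 10.1 in the 6-month and 9.03 to 9.87 in the 3-month controls. Of these Sox9 rose against both controls and Krt7 was not called. The 6 endothelial markers summed to 9.74 to 12.3 in the E545K tumours and 9.71 in the 12-month tumour, against 11.6 to 12.1 in the 6-month and 11.9 to 12.0 in the 3-month controls. None of them was called against the 6-month controls, and Stab2 fell relative to the 3-month controls. The 7 stellate cell and fibroblast markers summed to 10.8 to 12.7 in the E545K tumours, against 11.6 to 12.8 in the 6-month and 12.3 to 12.8 in the 3-month controls. Col1a1 and Col3a1 rose against the 6-month controls, and Des, Lrat and Dcn fell relative to the 3-month controls. The neutrophil markers S100a8 and S100a9 rose relative to the 3-month controls alone, with sums of 6.94 to 9.21 in the tumours, against 5.92 to 6.59 in those controls and 5.62 to 8.07 in the 6-month controls. The part of these other cells in the members' changes was not tested. The E545K tumours detected 16734 to 18010 probes, more than every control (14536 to 16243). The dimmest detected probe had a log2 signal of 4.61 to 4.69 in the tumours, against 4.73 to 4.93 in the controls, so a dim member counted as detected at a lower signal in the tumours. The number of arrays, not a read depth, limits the precision.

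Members not tested numbered 17. They were Ces1h, Ces5a, Sult1b1, Sult1c1, Sult1e1, Sult2a1, Sult2a6, Sult2a7, Sult3a1, Sult3a2, Sult6b1, Sult6b2, Ugt1a10, Ugt1a2, Ugt2a1, Ugt2b37 and Ugt2b38. Among them are the estrogen sulfotransferase Sult1e1 and the female-enriched mouse liver genes Sult2a1 and Sult3a1. Where a probe of these genes was detected at all, its log2 signal was 4.71 to 5.15. Sult1b1 was detected on the most arrays, at 4.93 in H1047R liver 4 of 3 months, at 5.15 and 4.79 in 3-month controls 3 and 4, and at 4.78 in 6-month control 4. Sult1e1 was detected in E545K tumour 3 at 4.80 and in H1047R liver 1 of 3 months at 4.71, and in no control.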

How the data were processed

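The deposited non-normalized intensities of 25 arrays are on a linear scale, with a detection p-value for each probe, per the file headers. An alternative used the processed intensities of the authors. The authors' deposited tables hold log2 differences, p-values, and moderated t and log-odds scores in limma's column layout, per the file headers. The sources used here do not give the array type or the scanner software. Extraction was by Trizol and RNeasy, per the labels' protocols.

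Intensities were corrected and quantile-normalized with neqc (limma 3.58.1, R 4.3.3; offset 16). A gene was its probe of highest mean log2 signal among those detected (p under 0.05) on at least 4 arrays. Each comparison was a limma fit (lmFit, eBayes) to its own groups, with Benjamini-Hochberg adjustment over 11594 genes. The script was tested on simulated data. Some motif and marker results are not reported here. Members and lists were chosen with earlier results of these data known. All members could be named, with full values for those called against both control groups. Alternatives were other normalizations, filters, probes and fits, left-out arrays and the replicate number as a block. Figures used matplotlib 3.10.9.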

Additional observations from a re-analysis of the deposited data

Results flagged for a closer look

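Of 170 groups of 4 or 5 arrays checked, 14 held an array standing apart from the others by Dixon's criterion, which chance meets in about 1 in 20 groups.

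In the E545K tumours, Sult2a8 was 6.67 in tumour 1, with the next tumour at 4.93. Ugt1a9 was 5.44 in tumour 2, the single tumour in which it was detected. Ugt2b5 was 4.37 in tumour 1, the lowest of 5 undetected values that lay within 0.1 of each other.

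In the E545K livers of 3 months, liver 4 stood highest in Ugt1a5 at 5.87, in Ugt1a6a at 5.33 and in Sult2b1 at 4.69, and Sult2b1 was undetected there. In the H1047R livers of 3 months, liver 1 stood highest in Ces2g at 8.87, where the other 3 lay between 7.80 and 7.91, and in Ugt1a9 at 5.03.

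In the 6-month controls, Ces1a was 4.50 and undetected in control 5, and Sult1d1 was 7.37 in control 1, with the next at 8.8. In the 3-month controls, Ces3b was 12.5 in control 3, Sult1a1 was 12.4 and Ces4a 4.85 in control 2, and Sult2b1 was 4.69 and undetected in control 3.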

How the results depend on the processing

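Of the 66 calls of members in the 3 tumour comparisons, 45 kept their side of the threshold under every alternative that gave a value, and none reversed. Sult2a8, Sult4a1, Ces3a, Ces3b, Ces1e, Ces2a, Ces2e, Ces2g, Sult1a1, Sult2b1, Sult5a1 and Ugt2b1 are among these in all 3 comparisons. Calls against the 6-month controls were lost for Ugt2a3 under 11 alternatives (highest adjusted p 0.109), Ces1a under 11 (0.0952), Ces1c under 12 (0.118), Ces1g under 6 (0.0647), Ces1b under 5 (0.0680) and Ugt2b5 under 4 (0.0552). Against the 3-month controls Ugt1a5 lost its call under 12 alternatives, Ugt2a3 and Ces1b under 10, Ugt1a6a under 9, Ces2b under 8, Ces1a and Ugt2b35 under 7, Ugt2b36 under 5 and Ces1f under 1. Against the E545K livers Ugt2b5 lost it under 12, Ugt3a1 under 11, Ugt2b35 under 9, Ces1g and Ugt2a3 under 4 and Ces2b under 1. Leaving out 1 array at a time gave between 15 and 23 called members for the tumours against the 3-month controls, 14 to 21 against the 6-month controls and 20 to 25 against the E545K livers. It gave 0 in each comparison without tumours, and 0 to 10 for the late H1047R samples. The 10 arose without the 6-month H1047R liver, which leaves the 12-month tumour alone, assumed to vary like the controls. The late comparison called 11 members in a single fit of all 25 arrays, 1 higher and 10 lower, where 6.55% of all genes were called higher and 2.92% lower. Of 30 same-numbered pairs 10 correlated above 0.1 (range -0.31 to 0.46). Pairs of unlike number were not compared, so this cannot decide whether replicate numbers pair the samples. The main fits did not pair them. With the number as a block 16, 21 and 22 members were called against the 3-month controls, the 6-month controls and the E545K livers, where 31.1%, 23.1% and 38.8% of all genes were called, and the late samples had no such fit. Chip names were not used here, so a slide block was not run. Low signal limits Ces1a, Ces4a, Sult2b1, Sult5a1, Ugt2b5 and most Ugt1 genes.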

Other observations

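The authors' deposited table named for the tumours against 3-month controls did not hold that contrast by its values. Over all genes its log2 differences correlated at 0.999868 with tumours minus 6-month controls, with a median absolute gap of 0.0034, and at 0.902 with tumours minus 3-month controls. In that table of the authors 15 members were lower and 5 higher at the authors' adjusted p. The authors' deposited tables for the mutant livers of 3 months and for the control ages called 0 members each.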
